A study of Mus musculus with 8 samples.

Results

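Endothelial cells from the arteries of mouse embryos were divided by a reporter of Ly6a, the gene that encodes the stem cell antigen Sca-1, and the GFP+ endothelial cells were compared with the GFP- endothelial cells. The comparison rests on 4 of the 8 arrays of the series, which are the arrays labelled as GFP+ or GFP- endothelial cells, with 2 arrays in each group. The other 4 arrays hold GFP+ and GFP- hematopoietic cluster cells, which adhere in round groups to the inside of the arteries, and serve here to estimate the spread and to show where the endothelial difference is of another size. All embryos were at E10.5 (days of embryonic development) and carried Tg(Ly6a-GFP), a transgene in which Ly6a regulatory sequence drives green fluorescent protein, from transgenic fathers and F1 mothers of C57BL/6 and 129S1/SVImJ. Tissue labelled A+U+V was taken from 100 embryos, and cells that carried CD31, VE-cadherin (VEC) and ESAM without Kit were sorted as endothelial. This gave 70000 GFP+ and 300000 GFP- endothelial cells. Cluster cells carried the same antigens and Kit, and numbered 30000 GFP+ and 130000 GFP- cells. The RNA of each group was divided into 2 fractions before amplification, so a pair of arrays repeats the amplification and the hybridisation of 1 pool. The p-values below therefore measure technical spread, and n counts arrays. The labels give the sex as male, although whole sets of embryos were pooled. GFP marks cells in which the transgene was active, which need not equal expression of the resident Ly6a gene.

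At this stage the arterial endothelium includes hemogenic endothelium, the source of early blood stem and progenitor cells, which form by a change of identity that needs the transcription factor Runx1. Arterial endothelium is set by Notch signalling, blood flow and vascular endothelial growth factor, and lies beside an elastic and collagenous wall that is only beginning to form. Interferon signalling acts through receptors, Janus kinases and STAT and IRF factors on genes whose promoters often hold the interferon-stimulated response element (ISRE).

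Of the probes, 57.0% to 63.7% per endothelial array exceeded background clearly (the scanner's well-above-background call), none was saturated, and the correlation over genes between replicate arrays was 0.996 for GFP+ cells and 0.998 for GFP- cells. Levels are given as log2 signal relative to the 75th percentile of the array, and differences as log2 fold change (GFP+ over GFP-) with its standard error; levels of different genes are not comparable on arrays. Of 18985 genes tested with limma at a Benjamini-Hochberg adjusted p under 0.05, 10046 (52.9%) were called: 3513 (18.5%) higher and 6533 (34.4%) lower in GFP+ cells. A change of at least 2-fold was called for 1276 genes (6.72%), 455 higher (2.4%) and 821 lower (4.32%). The median gene lay at -0.13, and at -0.036 with arrays scaled on their medians, so the split between higher and lower depends on the scaling: the called genes were higher in 35% with the 75th percentile and in 47.6% with array medians, 48.2% by the values the authors normalized and 50.5% after quantile normalization. Among the 10046 called genes, 495 turned direction under one of those scalings, all with a log2 fold change below 0.44 in size. Every called gene differed in the same direction on both slides, but the calls came from these same arrays, so this is no separate check. Counts of list members below are to be read against 18.5% higher and 34.4% lower. Between the 4 scalings the count of lower members moved by over 1.5 times in 19 of the 32 lists and that of higher members in 6, and such counts are given where a statement rests on them.

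**Figure D1:**
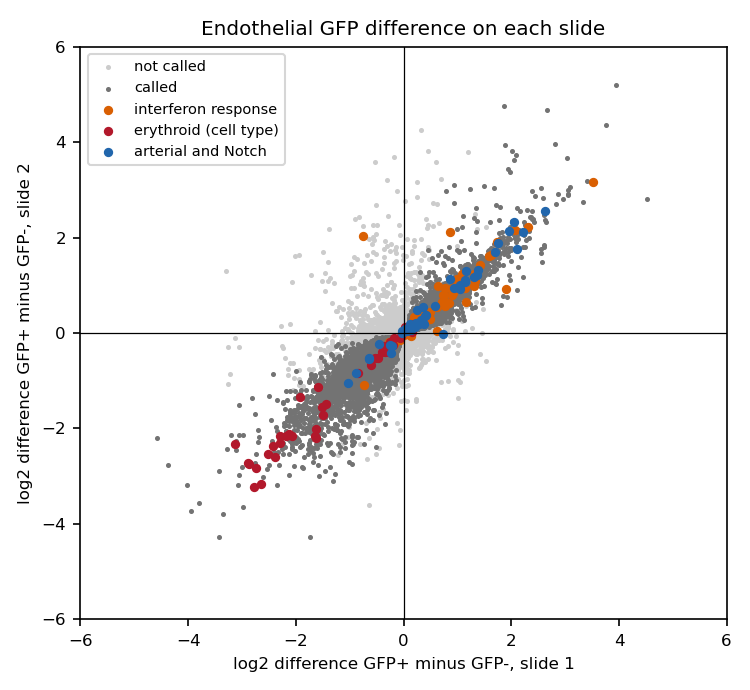
Log2 difference, GFP+ minus GFP- endothelial cells, of each gene tested on slide 1 (horizontal) and slide 2 (vertical). Grey points are all genes, darker where called, and colours mark members of 3 lists; erythroid genes lie low on both slides, and most interferon and arterial genes lie high on both.

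The sort markers and the markers of the label were read first. The gate selected on the reporter, so the Ly6a difference is a check and no finding. Ly6a (probe on chromosome 15, 74825553 to 74825612, mouse build mm9) was at 0.46 and 0.52 on the GFP+ arrays and at -3.30 and -3.85 on the GFP- arrays, a log2 fold change of 4.06 ± 0.17 (adjusted p = 9.77e-05, limma, n = 2 against 2). Probe positions are those of the array files, on mm9, and exons were not looked up, since no genome of that build was used. Ly6 genes are close relatives, and their probes may share signal. Gja5, which encodes the arterial gap junction protein connexin 40 (chromosome 3, 96857349 to 96857408), was at 4.25 and 4.28 in GFP+ cells and at 2.03 and 2.16 in GFP- cells, a fold change of 2.17 ± 0.057; its other probe differed by 0.61. Htra1, which encodes a secreted serine protease (chromosome 7, 138129081 to 138129140), was at 2.51 and 2.55 in GFP+ cells and at -0.36 and -0.37 in GFP- cells, 7.43-fold higher. The antigens of the gate moved little. Kit differed by -0.02 (adjusted p = 0.782) and Esam by -0.03 (adjusted p = 0.733), and neither passed. Pecam1, which encodes CD31, was higher by 0.38 ± 0.087 and the endothelial receptor gene Tek by 0.93 ± 0.077. Cdh5, which encodes VE-cadherin, was lower by 0.26 and Kdr, the main receptor gene for vascular endothelial growth factor, by 0.35 on the log2 scale, but both turned to 0.0012 and 0.0003 with quantile normalization. Endothelial identity markers such as Emcn (0.34), Tie1 (0.13, not called) and Egfl7 (-0.22, not called) were well above background on all 4 arrays.

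Other cell types that the gate could hold were read from their markers. Erythroid markers were present in both groups, and the summed signal of 40 erythroid genes, in units of the 75th percentile, was 239 and 249 on the GFP+ arrays and 884 and 912 on the GFP- arrays. Sums over 36 macrophage and myeloid genes were 42.6 and 44.2 in GFP+ cells and 36.7 and 35.4 in GFP- cells. Mesenchymal genes summed to 57.6 and 58.2 in GFP+ cells and to 70.3 on each GFP- array. Neural genes summed to 14.24 and 14.55 in GFP+ cells and to 12.47 and 12.7 in GFP- cells. Liver and yolk sac genes summed to 16.45 and 16.91 in GFP+ cells and to 21.68 and 22.48 in GFP- cells. Of the defining markers, Myh11 of smooth muscle, Epcam of epithelium and Pou5f1 and Dazl of germ cells were not well above background in either group. But Acta2 of smooth muscle, Pax2 of epithelium, Sox10 and Tubb3 of neural cells and Alb and Afp of liver were, on all 4 endothelial arrays. The macrophage gene Lyz2 was well above background only on the GFP+ arrays. In sorted bulk cells, a smaller share of a cell type and less RNA per cell cannot be told apart.

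**Figure D2:**
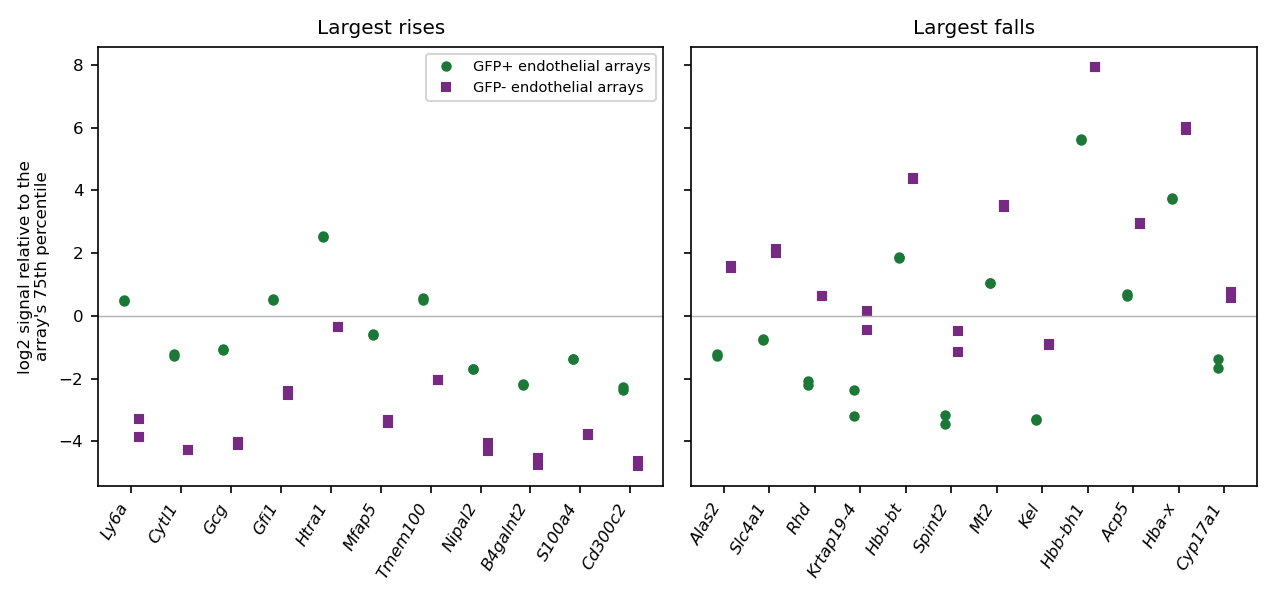
Log2 signal relative to the 75th percentile of the array (vertical) of 11 genes with the largest rises (left) and 12 with the largest falls (right) among genes above background on all 4 endothelial arrays. Each point is 1 array, GFP+ left of GFP- for each gene. The groups do not overlap in any of these genes, which were chosen by size among called genes.

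Among the genes with the largest rises, secreted and surface proteins stood beside a transcription factor. After Ly6a the largest rise was in Cytl1, which encodes a secreted cytokine-like protein, at -1.20 and -1.28 in GFP+ cells and -4.26 and -4.27 in GFP- cells (3.03 ± 0.093, adjusted p = 4.21e-05). Gcg, which encodes proglucagon (chromosome 2, 62312685 to 62312744), was at -1.06 and -1.09 in GFP+ cells and at -4.12 and -4.01 in GFP- cells. Gfi1, a repressor that silences endothelial genes as blood cells emerge (chromosome 5, 108145719 to 108145778), was at 0.54 and 0.51 in GFP+ cells and at -2.52 and -2.38 in GFP- cells, 7.85-fold higher. Both GFP+ arrays exceeded both GFP- arrays for each of these genes. The genes were chosen by size among genes called on these same arrays, so this is no separate check. Mfap5, a protein of elastin-associated microfibrils, rose by 2.77 ± 0.11. Tmem100, which encodes an endothelial membrane protein induced by bone morphogenetic proteins through the receptor Acvrl1, was at 0.57 and 0.51 in GFP+ cells and at -2.05 and -2.06 in GFP- cells. Nipal2, of a magnesium transporter family (2.49), the glycosyltransferase gene B4galnt2 (2.47), the calcium-binding protein gene S100a4 (2.40) and the myeloid receptor gene Cd300c2 (2.39) were also among the largest rises. A further 162 genes (0.853%) were above background on the GFP+ arrays alone, and their differences are bounds. The synaptotagmin gene Syt15 was at least 8.45-fold higher. Pnoc, which encodes the precursor of nociceptin, was at least 7.39-fold higher, and Pde3a, a phosphodiesterase of cyclic nucleotides, at least 5.86-fold higher.

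The 12 largest falls were mostly in genes of red cells. Alas2, the erythroid enzyme of heme synthesis, was at -1.29 and -1.20 in GFP+ cells and at 1.59 and 1.54 in GFP- cells (-2.81 ± 0.078, adjusted p = 3.77e-05). The blood group protein gene Rhd was at -2.09 and -2.19 in GFP+ cells and at 0.64 on both GFP- arrays. Beside them stood Slc4a1 (-2.81), Kel (-2.40) and the globin genes Hbb-bt, Hbb-bh1 and Hba-x, whose near-identical copies can share probes. Fewer were not erythroid: Mt2, a metal-binding metallothionein, was at 1.05 on both GFP+ arrays and at 3.46 and 3.54 on the GFP- arrays, and Acp5, an acid phosphatase of osteoclasts and macrophages, fell by 2.28 on the log2 scale. Spint2, an inhibitor of serine proteases, was at -3.17 and -3.45 in GFP+ cells and at -0.47 and -1.16 in GFP- cells, and Cyp17a1, an enzyme of androgen synthesis, was at -1.38 and -1.65 in GFP+ cells and at 0.77 and 0.57 in GFP- cells. The replicates of Krtap19-4 (-2.63 ± 0.34) spread more than those of the other genes. As bounds, Mst1 was at least 5.81-fold, Fgf14, a fibroblast growth factor homologue of neurons, at least 4.58-fold, and the ankyrin gene of the red cell membrane skeleton, Ank1, at least 4.34-fold lower in GFP+ cells. Bounds of this kind, on genes above background on the GFP- arrays alone, exist for 315 genes (1.66%).

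**Figure D3:**
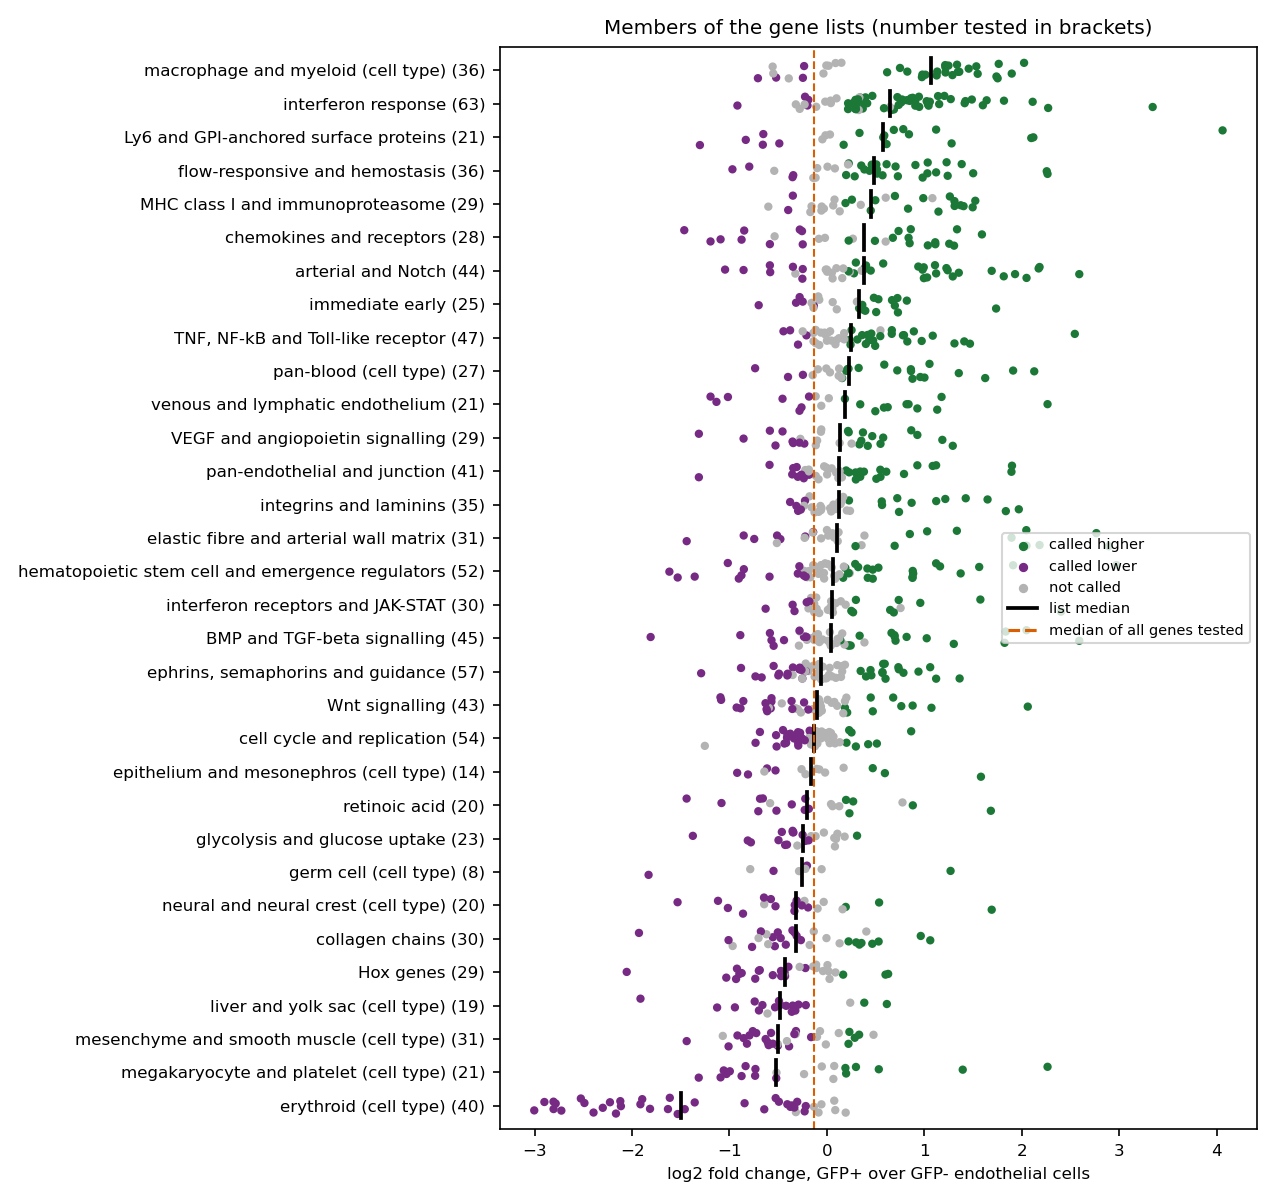
Log2 fold change, GFP+ over GFP- endothelial cells (horizontal), of every tested member of 32 gene lists, ordered by list median (black bars); the dashed line is the median of all genes tested at -0.13. Green points were called higher and purple points lower; the macrophage and interferon medians lie farthest right at 1.07 and 0.65 and the erythroid median farthest left at -1.50.

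Matrix genes of the arterial wall were mixed. Among 31 elastic fibre and arterial wall genes, 11 were higher (35.5%), 7 lower and 13 not called, with a median of 0.10. The higher members included genes of microfibrils and elastic fibre assembly, chosen here for their size. Fbn1, which encodes fibrillin-1, the main microfibril protein (chromosome 2, 125126727 to 125126786), was at 1.55 and 1.60 in GFP+ cells and at -0.58 and -0.37 in GFP- cells, 4.13-fold higher. Fbln5, an elastogenic fibulin, was at -0.81 and -0.87 in GFP+ cells and at -2.85 and -3.20 in GFP- cells. Ltbp4 (2.05), which binds latent transforming growth factor beta and takes part in elastogenesis, Fbln2 (1.90), Ltbp2 (1.33) and Efemp1 (1.03) were higher too. Elastin itself, Eln, differed by 0.00 and was not called. Other elastic fibre genes fell, Emilin1 by 0.51 and Fbln1, which encodes fibulin-1, by 0.48 on the log2 scale. The 7 that fell also included Dcn, a collagen-binding proteoglycan, at -0.02 and -0.03 in GFP+ cells and at 1.48 and 1.35 in GFP- cells, and Postn (-0.85), both also made by mesenchyme, whose 31 listed genes were lower in 18 cases and higher in 4 (median -0.50); the part of mesenchymal RNA in these falls was not tested.

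Collagen chains and the laminins of basement membranes were mixed too. Of 30 collagen chains, 8 were higher and 13 lower (43.3%), with a median of -0.32; with array medians these counts were 7 and 8, and with quantile normalization 6 and 11. Col15a1, a chain of the basement membrane zone of vessels, was at -3.10 and -3.17 in GFP+ cells and at -1.13 and -1.28 in GFP- cells (-1.93 ± 0.15, adjusted p = 0.000439), and its other probes differed by -1.32 and -1.48. The fibrillar chains Col3a1 (-0.55), Col1a1 (-0.50) and Col1a2 (-0.33) were lower, and Col5a2 (0.96), Col4a1 (0.47) and Col4a2 (0.33) were higher. Of 35 integrins and laminins, 12 were higher, 5 lower and 18 not called, and with quantile normalization 14 were higher and 2 lower. Among laminin chains known from the anchoring sites of epithelia, Lama3 rose by 1.43 ± 0.17 and Lamb3 by 1.65 ± 0.091, with Lamb3 well above background on only part of the arrays. Itgb4, the integrin chain that pairs with the alpha chain Itga6 and binds the laminin of those sites, was at -1.52 and -1.56 in GFP+ cells and at -3.41 and -3.34 in GFP- cells. Lamc3 (1.97) and Lama5 (1.22), chains of other basement membrane laminins, rose as well, and Lama4 (-0.27) and Lamb1 (-0.22), chains of vessel laminins, were lower, but neither was called under any other scaling and Lamb1 turned to 0.086 with quantile normalization. Itga6 was lower by 0.30 on the log2 scale but turned direction under another scaling.

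Genes of arterial identity and of flow-exposed endothelium were called higher in larger shares than the 18.5% of all genes. This was not particular to them: of 21 venous and lymphatic endothelial genes, 11 were higher (52.4%), 7 lower and 3 not called, with a median of 0.19. Of 44 arterial and Notch genes 26 were higher (59.1%), 7 lower and 11 not called, with a median of 0.38. Besides Gja5, these were the Notch target Hey2, at -2.57 and -2.75 in GFP+ cells and at -4.68 and -4.51 in GFP- cells, the tyrosine kinase gene Bmx (1.82), Gja4 (1.23) and the ligand genes Jag1 (1.11), Dll1 (0.94) and Dll4 (0.37). The receptor genes Notch4 (0.39) and Notch3 (0.22) rose and Notch1 was lower (-0.35, but 0.64 by its other probe). The target Hes5 fell by 1.05 ± 0.11 on the log2 scale and Hes1 by 0.58. Of 36 flow-responsive and hemostasis genes 25 were higher (69.4%), 4 lower and 7 not called, with a median of 0.48. Vwf, the platelet-tethering von Willebrand factor (chromosome 6, 125636551 to 125636610), was at 5.73 and 5.86 in GFP+ cells and at 3.47 and 3.59 in GFP- cells. Pi16, a secreted protein that is induced by shear stress in endothelium, was at 2.11 and 2.19 in GFP+ cells and at -0.17 and -0.05 in GFP- cells, 4.78-fold higher. The shear-induced factor Klf4 rose by 1.23 ± 0.048 and its relative Klf2 by 0.22. Entpd1 (1.50), which degrades extracellular ATP, Thbd (0.98) and Procr (1.12), which turn thrombin toward activating protein C, Ptgis (1.03), the prostacyclin synthase, and Edn1 (1.24), the precursor of endothelin-1, were higher. Plau, the urokinase gene, was the largest fall (-0.97 ± 0.088).

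Genes that guide vessel growth included rises and falls. Of 29 genes of vascular endothelial growth factor and angiopoietin signalling 13 were higher (44.8%) and 9 lower (31%), against 11 and 4 with array medians and 17 and 6 with quantile normalization. The ligand genes Vegfc (1.29) and Vegfa were higher; Vegfa was at 1.07 and 1.13 in GFP+ cells and at -0.08 and -0.09 in GFP- cells. Genes known from the tip cells of sprouting vessels were among the lower, as Esm1, at 0.67 and 0.82 in GFP+ cells and at 2.04 and 2.08 in GFP- cells, Pdgfb (-0.53), Cxcr4 (-0.59), Angpt2 (-0.35), Flt4 (-0.46) and Apln (-0.23). With array medians Angpt2 (adjusted p = 0.178), Flt4 (adjusted p = 0.0637) and Apln (adjusted p = 0.376) did not pass in limma, while Dll4, also known from tip cells, was higher. Of 41 pan-endothelial and junction genes, 18 were higher and 9 lower (15 and 2 with array medians, 26 and 3 with quantile normalization), led by the tight junction genes Jam2 (1.90) and Ocln (1.89). Ephrins, semaphorins and other guidance genes were higher in 16 of 57 cases and lower in 15, with Plxnc1 (1.36), Sema3g (1.12) and Slit2 (1.06) higher and Ephb1 (-1.29) and Sema3a (-0.73) lower; this balance shifted to 19 higher and 10 lower with quantile normalization.

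The ligands and inhibitors of the bone morphogenetic protein (BMP) and Wnt pathways moved in different directions. The ligand gene Bmp6 was at -1.68 and -1.85 in GFP+ cells and at -3.49 and -3.71 in GFP- cells, and Bmp2 rose by 1.02. Among the BMP inhibitors, Bmper (1.82 ± 0.07) and Chrdl1 (1.30) were higher and Nog (-1.81 ± 0.36, above background on only part of the arrays) lower. The feedback inhibitors Smad6 (0.82) and Smad7 (0.66) rose, and the receptor Bmpr2 was lower (-0.58). In all, 16 of 45 were higher (35.6%) and 10 lower. Of 43 Wnt genes 9 were higher (20.9%) and 15 lower (34.9%), shares near those of all genes. Wnt11 rose by 1.07 ± 0.081, and Wnt9b was at least 4.18-fold higher. The nuclear partners of beta-catenin Lef1 and Tcf7 fell: Lef1 was at -0.66 and -0.54 in GFP+ cells and at 0.33 and 0.32 in GFP- cells. The feedback inhibitor Nkd1 fell by 1.09 (-0.0115 by its other probe) and the receptor Fzd10 by 1.09 on the log2 scale.

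Hox genes and retinoid genes, which carry positional information, were lower more often than higher. Of 29 Hox genes 3 were higher, 16 lower (55.2%) and 10 not called, with a median of -0.43. By cluster, 5 of 6 tested HoxC genes, 5 of 8 HoxB genes, 3 of 5 HoxD genes and 3 of 10 HoxA genes were lower. Hoxc6 was at -0.85 and -0.87 in GFP+ cells and at -0.02 and 0.09 in GFP- cells, and Hoxa6 at -4.56 and -4.54 in GFP+ cells and at -3.67 and -3.56 in GFP- cells. Those that rose included Hoxa2 (0.60) and Hoxa9 (0.17). Of 20 retinoic acid genes 5 were higher and 10 lower (50%), with a median of -0.20 beside -0.13 over all genes tested. These counts moved with the scaling: 3 and 6 with array medians, 5 and 8 with quantile normalization, and 6 and 8 by the authors' values. Cyp26a1, which breaks retinoic acid down, was at -1.53 and -1.51 in GFP+ cells and at -3.24 and -3.16 in GFP- cells, whereas Stra6, which takes up retinol, fell by 1.44 ± 0.097 and Aldh1a2, which makes retinoic acid, by 0.52 on the log2 scale.

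Interferon-response genes were higher in 48 of 63 cases (76.2%), lower in 4 and not called in 11, with a median of 0.65 beside -0.13 over all genes tested. Lgals9, a lectin that is induced by interferon gamma, was at -1.40 and -1.44 in GFP+ cells and at -3.46 and -3.61 in GFP- cells, 4.33-fold higher. The guanylate-binding protein genes Gbp4 (1.82), Gbp7 (1.49), Gbp3 (1.14) and Gbp2 (1.04) rose together; Gbp2 was at -2.39 and -2.53 in GFP+ cells and at -3.53 and -3.48 in GFP- cells. The pattern also held the oligoadenylate synthetase relatives Oasl2 (1.64 ± 0.055) and Oasl1 (1.42), the DNA sensor family genes Ifi202b (2.27) and Ifi204 (1.60), whose near-identical copies can share probes, and the ubiquitin-like modifier gene Isg15 (0.69 ± 0.083). Ifi44 was at least 2.47-fold and Ifit3 at least 2.29-fold higher. Those that fell were Cxcl11 (-0.92, 0.018 by its other probe), Oas1b (-0.22, 0.043 by its other probe), Ube2l6 (-0.20) and Cmpk2 (-0.19). Upstream of the response most genes were not called: of 30 genes of interferon receptors and Janus kinase to STAT signalling 9 were higher, 5 lower and 16 not called, with Ifnar1 at 0.04, Ifnar2 at 0.06, Ifngr1 at -0.19 and Ifngr2 at -0.11, none called, and Stat4 (1.58) higher. The macrophage signal was higher in the same cells (24 of 36 genes), and its part in the interferon-response result, and in the antigen presentation and inflammatory results that follow, was not tested.

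The antigen presentation genes next to this response were higher in 15 of 29 cases (51.7%) and lower in 2. H2-D1, a classical class I heavy chain, was at 2.05 and 2.21 in GFP+ cells and at 0.64 and 0.82 in GFP- cells. H2-T23 rose by 1.52 ± 0.054, and the immunoproteasome subunit gene Psmb9 rose by 1.50 ± 0.29. The H2 genes are near-identical copies and cannot be told apart with certainty, and for H2-K1 the 2 probes differed by 0.45 and 1.31. The light chain gene B2m rose by 0.26.

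The promoters of the interferon-response genes are shown because promoters of such genes often hold the ISRE. Its excess in this list over all genes is therefore no finding of these data. Promoters of the 300 bases from 250 before to 50 after the start of each gene were taken from RefSeq (build GRCm38.p6) and searched for GAAANNGAAA on either strand. They held this motif in 3.99% of 27025 genes and in 3.46% of the 11403 tested genes with a promoter in the table. Of the 63 tested interferon-response genes, 49 had a promoter there and 26 of these (53.1%) held the motif; it was in 24 of 38 that were higher (63.2%) and in 2 of 11 that were not (18.2%). The palindrome TTCNNNGAA, which STAT dimers bind, was in 34.7% of the 49, against 9.55% of all promoters. The motif is in capitals in the stretches below, from the 11 members that rose by the most among the 18 higher members whose motif lies in the 250 bases before the start.
Lgals9, chr11:78984950-78984999, minus strand: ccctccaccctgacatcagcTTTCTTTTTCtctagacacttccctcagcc
Gbp7, chr3:142530263-142530312, plus strand: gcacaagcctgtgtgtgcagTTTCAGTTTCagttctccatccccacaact
Ifit3, chr19:34583353-34583436, plus strand: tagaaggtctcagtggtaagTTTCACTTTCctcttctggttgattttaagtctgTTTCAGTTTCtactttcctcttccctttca
Gbp3, chr3:142559979-142560034, plus strand: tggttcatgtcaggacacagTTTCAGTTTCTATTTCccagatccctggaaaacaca
Gbp2, chr3:142620584-142620633, plus strand: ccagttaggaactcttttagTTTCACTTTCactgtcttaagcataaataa
Irgm2, chr11:58214893-58214942, plus strand: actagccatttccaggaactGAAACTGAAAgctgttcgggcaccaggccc
Oas1a, chr5:120907526-120907565, minus strand: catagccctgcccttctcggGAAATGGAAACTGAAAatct
Phf11b, chr14:59341351-59341400, minus strand: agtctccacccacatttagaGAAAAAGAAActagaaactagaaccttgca
Cxcl10, chr5:92349073-92349122, minus strand: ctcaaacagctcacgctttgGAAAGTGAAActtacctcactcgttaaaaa
Irgm1, chr11:48871421-48871470, minus strand: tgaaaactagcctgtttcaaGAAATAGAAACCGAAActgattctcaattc
Isg15, chr4:156200855-156200916, minus strand: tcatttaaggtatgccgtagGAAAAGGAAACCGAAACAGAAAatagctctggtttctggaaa
In Gbp2, Gbp3 and Gbp7, neighbours on chromosome 3, the first motif begins 59, 45 and 53 bases before the start of the gene. In Gbp3, Oas1a, Irgm1 and Isg15 copies of the motif overlap in 1 run, and in Ifit3 the copies lie apart. A match is a description of these letters and not of binding.

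Inflammatory signalling and chemokine genes were called higher in about 50% of cases. Of 47 genes that act downstream of Toll-like receptors and tumor necrosis factor, through NF-kB, 24 were higher (51.1%), 4 lower and 19 not called. The cytokine genes Il1b and Tnf were measured only in GFP+ cells, at least 2.25-fold and at least 2.22-fold higher. Il1r1, the receptor of interleukin 1, was at -1.38 and -1.08 in GFP+ cells and at -2.67 and -2.62 in GFP- cells, and Tnfaip3, which ends NF-kB signalling, rose by 0.97 ± 0.09. Chemokines and their receptors were higher in 14 of 28 cases (50%) and lower in 9 (32.1%, near the share of all genes). Ccl24 (1.59), Cx3cr1 (1.34, 0.18 by its other probe), Cxcl1 (1.31) and Ccl6 (1.26) were higher. Ccl21a (-1.19), Pf4 (-1.09) and Ppbp (-0.88) were lower.

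Macrophage and myeloid genes had the highest median of the lists, 1.07, with 24 of 36 higher (66.7%), 4 lower and 8 not called. Adgre1, which encodes F4/80, was at -1.63 and -1.32 in GFP+ cells and at -3.30 and -3.18 in GFP- cells, Tyrobp, a myeloid signalling adaptor, rose by 1.90 ± 0.079, and the complement genes C1qa (1.21), C1qb (1.01) and C1qc (1.35) rose together. Neutrophil granule genes differed among themselves. Prtn3 (-0.71) and Mpo (-0.52, -0.0075 by its other probe) were lower, and Elane (-0.39) and Camp (-0.55) were not called. The lactotransferrin gene Ltf was at -4.08 and -2.13 in GFP+ cells, so its GFP+ arrays lay far apart. It was not well above background on the GFP- arrays, which gives a bound of at least 3.97-fold higher. Genes shared by most blood cells were higher in 17 of 27 cases (63%), as Spn (1.91), which encodes CD43, and Ptprc (0.88), which encodes CD45. Of 52 hematopoietic stem cell and emergence regulators 21 were higher (40.4%), 12 lower (23.1%) and 19 not called. Runx1 was at -2.55 on both GFP+ arrays and at -3.32 and -3.54 on the GFP- arrays (0.88 ± 0.088). Its other probe, above background on only 2 endothelial arrays, differed by 2.17. The stem cell factors Hlf (1.37 ± 0.21), Prdm16 (1.16) and Ikzf2 (1.56, 0.51 by its other probe) rose. Etv2, which specifies early endothelial and blood precursors, was at -3.61 and -3.76 in GFP+ cells and at -2.06 and -2.08 in GFP- cells. Gata1 (-1.53) and Klf1 (-1.36), factors of red cell precursors, fell with 33 of the 40 erythroid genes (82.5%), of which 0 were called higher by limma and 7 were not called; 1 was higher at an unadjusted p under 0.05 and 1 was called higher with quantile normalization. The erythroid sums given above moved with this count. Megakaryocyte and platelet genes were lower in 10 of 21 cases (47.6%) and higher in 6. Their summed signal was 82.2 and 86.2 in GFP+ cells and 59.3 and 60.8 in GFP- cells, and without Vwf, which endothelium also makes, it was 29.1 and 28.3 in GFP+ cells and 48.3 and 48.8 in GFP- cells. The chemokine gene of platelet granules, Pf4, was at 3.11 and 2.98 in GFP+ cells and at 4.15 and 4.13 in GFP- cells. Of the other Ly6 and GPI-anchored surface protein genes, Ly6c1 was at 1.51 on both GFP+ arrays and at -0.60 and -0.58 on the GFP- arrays (2.10 ± 0.084, 0.99 by its other probe). Without Ly6a, 12 of 20 of these genes were higher (60%) and 5 lower.

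Counts of growth and metabolism genes depended on the scaling. Cell cycle and replication genes were higher in 7 and lower in 21 of 54 cases (38.9%), a share near that of all genes, and the counts were 18 higher and 13 lower with quantile normalization. Uhrf1, which maintains DNA methylation, fell by 0.69 ± 0.055 on the log2 scale. Glycolysis genes were lower in 13 of 23 cases (56.5%), but in 5, with 6 higher, under quantile normalization. Slc2a1, the glucose transporter of endothelium and red cells, was at 3.86 and 3.82 in GFP+ cells and at 5.17 and 5.25 in GFP- cells; erythroid markers moved the same way, and their part in it was not tested. Of 25 immediate early genes 13 were higher (52%) and 5 lower, with Fos (0.70) and Nr4a1 (0.73) higher and Jun (-0.70) lower.

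**Figure D4:**
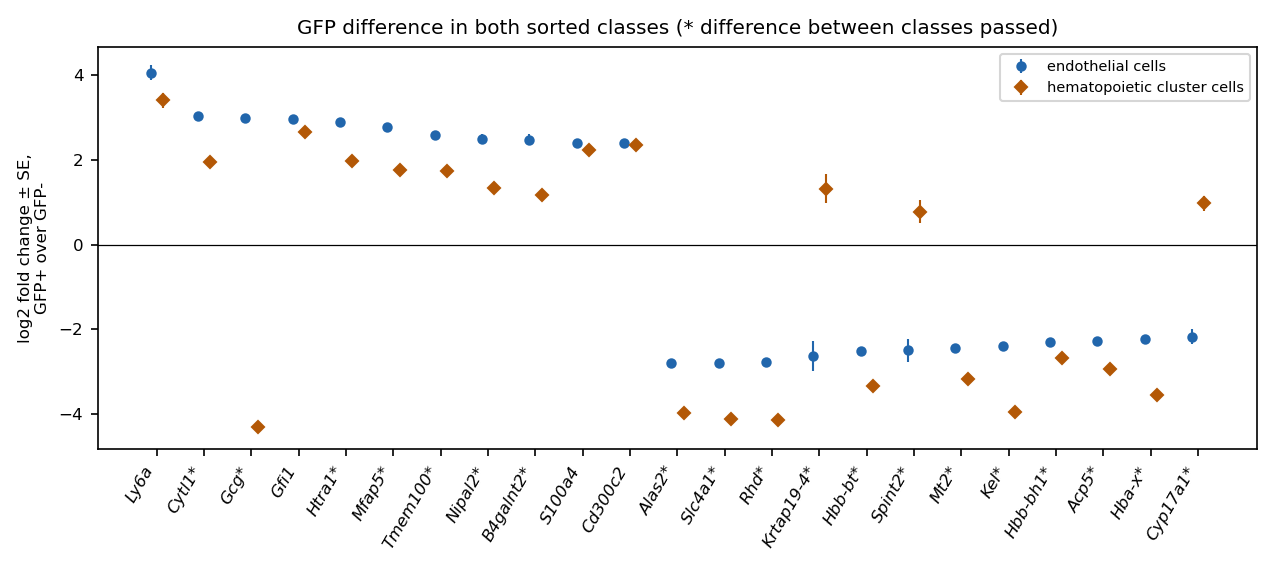
Log2 fold change ± SE, GFP+ over GFP-, of 11 of the largest endothelial rises and the 12 largest falls in endothelial cells (circles) and hematopoietic cluster cells (diamonds), an asterisk marking genes whose difference between the classes passed. Gcg lies at 2.99 in endothelial and at a fitted -4.32 in cluster cells, where its GFP+ arrays were not above background (at least 8.19-fold lower). Krtap19-4, Spint2 and Cyp17a1 lie on opposite sides of 0, and the erythroid genes fall further in cluster cells.

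The same GFP difference was then tested for its size against that in hematopoietic cluster cells, by an interaction in the same limma fit; 6240 of 18985 genes (32.9%) passed. Of the 11 named genes with the largest endothelial rises, 7 differed, each toward higher in endothelial cells. In cluster cells Gcg fell and the others of these 7 rose by less. The 11 genes were chosen for the size of their endothelial rise, which favours this direction. Among all 3513 genes called higher in endothelial cells, 54.8% passed the interaction, so the count of 7 is no finding about these genes. Of the 12 largest falls 12 differed, 9 being smaller in size than in cluster cells. The erythroid genes differed in the second way, with Slc4a1 at -2.81 in endothelial cells and -4.12 in cluster cells. Klf4 rose by 1.23 in endothelial cells and differed by 0.01 in cluster cells (interaction 1.22 ± 0.068, adjusted p = 0.00107). Bmp6, Vegfa and Tek differed in the same way, with 1.84, 1.19 and 0.93 in endothelial cells and 0.27, 0.21 and 0.04 in cluster cells. Pf4 was lower in endothelial cells (-1.09) and higher in cluster cells (0.62). Runx1 rose by less in endothelial cells, 0.88, than in cluster cells, 1.99. Of all genes tested, 32% were called in cluster cells, 12.6% higher and 19.4% lower; of the 10046 called in endothelial cells, 32.9% were called there in the same direction and 48.7% passed the interaction. Of the 52 called interferon-response genes, 45 were called in the same direction in cluster cells and 18 differed in size between the classes, 10 toward higher and 8 toward lower in endothelial cells.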

How the data were processed

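RNA of sorted cells was hybridised to 1-colour Agilent arrays. Per the labels' protocols, each group's RNA was divided into 2 fractions before amplification with the Ovation RNA-Seq System V2 and labelling with Cy3. Per the file headers and the submitters' processing notes, the deposited intensity values came from Agilent Feature Extraction 10.10.1.1, whose processed signal, already background-corrected, was used here. The authors' deposited table of normalized intensity values, with a normalization not given in the sources used here, was linear, had a median of 198 on each array and correlated at 0.997 to 1.000 with the scanner values; it served as an alternative.

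Log2 values were centred on each array's 75th percentile of non-control probes (664 to 1380 signal units). Outlier spots were left out (10 probes), spots averaged (39429 probes) and the brightest probe kept for each gene; 26049 probes were named by RefSeq accession, 3194 by current symbol and 10176 as in the file. Genes were tested if well above background on both arrays of an endothelial group. Fits used limma 3.58.1 in R 4.3.3 (data.table, version 1.17.8), with 8 arrays, 4 group means and 4 residual degrees of freedom, two-sided. A gene not above background in a group has a bound: the bright mean against the higher, per array, of the array's lowest signal that passed as above background and the signal of the dim probe. List medians did not move with bounds in place of fitted values. The fit was tested on simulated data. Replicate numbers mark slides and pair the arrays: replicate differences correlated between groups by 0.15 to 0.362 over genes. The members, lists and named genes were chosen with earlier results of these data known. The rule named sort markers, the 12 largest changes and 6 largest bounds each way, up to 6 members a list each way, and the 5 largest interactions; members of a pathway could stand beside them. Some genes that the rule chose are not reported here.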

Additional observations from a re-analysis of the deposited data

Results flagged for a closer look

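The genes below are named because their GFP difference was of another size in endothelial cells than in hematopoietic cluster cells, by the interaction of the limma fit at a Benjamini-Hochberg adjusted p under 0.05. Each value is the endothelial log2 difference (GFP+ over GFP-) minus that in cluster cells.

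The largest was Gcg, at 7.30 ± 0.12 (adjusted p = 3.39e-05): it was higher by 2.99 in GFP+ endothelial cells and at least 8.19-fold lower in GFP+ cluster cells, where both arrays were below the well-above-background call, so the size of this interaction, from fitted values, is not exact. Wnk4, a kinase that regulates ion transport, also had opposite directions, higher by 0.93 in endothelial cells and at -1.10 in cluster cells (2.03). Genes higher in GFP+ endothelial cells by more than in cluster cells were Bmp6 (1.56), Lamc3 (1.34), B4galnt2 (1.30), Klf4 (1.22), Itgb4 (1.20), Nipal2 (1.15), Cytl1 (1.08), Mfap5 (0.9995), Vegfa (0.97), Htra1 (0.91), Tek (0.89) and Tmem100 (0.86). Runx1 was higher in both classes and less so in endothelial cells (-1.11).

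Genes lower in GFP+ endothelial cells by less than in cluster cells were Slc38a5 (3.73), Ano1 (2.14), Abcg4 (1.74), Atp1b2 (1.67), Kel (1.56), Rhd (1.36), Hba-x (1.32), Slc4a1 (1.32), Alas2 (1.18), Hbb-bt (0.82), Mt2 (0.73), Acp5 (0.67) and Hbb-bh1 (0.39). Among them Slc38a5, an amino acid transporter gene, was at -0.24 in endothelial cells and at -3.96 in cluster cells, and the chloride channel gene Ano1 at -0.90 and -3.04. Genes lower in GFP+ endothelial cells and not lower in GFP+ cluster cells were Cxcl11 (-1.03), Pf4 (-1.71), Fxyd1 (-2.97), Dvl3 (-2.98), Cyp17a1 (-3.15), Spint2 (-3.27) and Krtap19-4 (-3.95). Pf4 was higher by 0.62 in GFP+ cluster cells. For Krtap19-4, Spint2, Dvl3 and Fxyd1 the replicate arrays of a group spread more than for the other genes, with standard errors of 0.49, 0.39, 0.45 and 0.28.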

How the results depend on the processing

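The endothelial count of 10046 called genes fell to 6103 with array medians, of which 3197 were lower, and the lower count to 4170 with quantile normalization; requiring at least 2-fold left 1276, 455 higher and 821 lower. With each endothelial array left out in turn the count ran from 7336 to 7972, 2580 to 2754 higher and 4582 to 5234 lower. The interaction count of 6240 fell to 2777 with array medians (1681 higher, 1096 lower), without any filter on dim probes to 2749 (1250 and 1499), and to between 4085 and 4490 with an endothelial array left out (1840 to 1998 higher, 2155 to 2492 lower). With the slide as a replicate block, which the pairing of the arrays by slide allows, 11081 genes were called, 3746 higher and 7335 lower, and no count of called genes moved by over 1.5 times.

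The planned normexp background correction left 111 genes, 67 higher and 44 lower, and in the interaction 1 higher and 0 lower, 1 in all. On 1 array, GFP- endothelial replicate 2, 2 spots have a local background over 1000. With those spots at the array's median background, an alternative chosen after seeing the data, 7679 endothelial genes were called (2848 higher, 4831 lower), all 1276 genes changed at least 2-fold kept their direction, and the interaction count was 3829 (1893 higher, 1936 lower). Under the planned version these rises turned round: Runx1 (-0.37), Lyz2 (-0.56), Ltf (-0.34), Pde3a (-0.042), Ltbp2 (-0.54), Lamb3 (-0.49), Lamc3 (-0.086), Hey2 (-0.039), Chrdl1 (-0.33), Wnt11 (-0.10), Wnt9b (-0.16), Hoxa9 (-0.38), Gbp7 (-0.43), Gbp2 (-0.15), Oasl1 (-0.39), Ifi204 (-0.043), Ifi44 (-0.46), Ifit3 (-0.65), Psmb9 (-0.38), Irgm2 (-0.17), Phf11b (-0.60), Cxcl10 (-0.38), Il1b (-0.63), Tnf (-0.72), Ccl24 (-0.42), Ccl6 (-0.016), C1qa (-0.078), Ptprc (-0.73), Hlf (-0.35) and Ikzf2 (-0.20). These falls turned round: Cdh5 (0.13), Kdr (0.007), Col1a2 (0.003), Itga6 (0.082), Lama4 (0.082), Lamb1 (0.14), Apln (0.078) and Oas1b (0.065). In the interaction Cytl1 (-0.20), B4galnt2 (-0.31), Lamc3 (-0.33) and Itgb4 (-0.072) turned, and with the added version Cd300c2 (-0.67). Under other settings Cdh5 (0.0012), Kdr (0.0003), Esam (0.20) Itga6 (0.034) and Lamb1 (0.086) turned with quantile normalization, Itga6 (0.038) and Lamb1 (0.056) in the authors' table, and Notch1 (0.15) and Ifnar1 (-0.18) with probes averaged per gene. The cause was not tested. Of the 1276 genes changed at least 2-fold, 1062 kept their direction with normexp and 1271 with probes averaged per gene. Under the other alternatives run, all those present did, but only 673 were present among genes well above background on all 4 endothelial arrays. With normexp and the 2 spots at the median background, 925 of the 1276 stayed called. With 2 arrays of divided RNA per group, variation between pools cannot be measured.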
